A study of Mus musculus with 14 samples.

Results

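The potassium channel genes of the array were taken as the genes whose symbol starts with Kcn, counting the probe sets annotated with 1 gene. This gave 84 of 18194 genes, measured by 167 probe sets, and each gene was given the value of its probe set with the highest mean over the 14 arrays. Of the 84 genes, 81 encode channel pores or subunits of 14 families and 3 are noncoding RNAs of channel loci. A single probe set measured 38 genes, and 46 genes had several, up to 6. RNA of hippocampus and heart from C57BL/6 mice of both ages was hybridized to single-colour Affymetrix mouse arrays, to ask how expression differs with age in each tissue and how hippocampus differs from a tissue outside the brain. The 4 groups were adult hippocampus and adult heart, from male mice 10 weeks old with 2 biological replicates of 2 technical arrays each, and pup hippocampus and pup heart, from mice 7 days old with 3 biological replicates of 1 array each. No treatment or genetic change was named for any group, and the sex of the pups was not given. The adult RNA was purchased (mRNA in the sample labels, total RNA in the study's methods) and the pup mRNA was isolated from dissected tissue, so age cannot be told apart from the source and preparation of the RNA. Titles and series design gave 2 adult replicates a tissue, other labels called each of the 4 arrays a biological replicate, and no source ties the adult replicates to different animals, so p-values measure only how far these samples spread, and that spread may be technical.

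Potassium channels let potassium ions leave the cell and so set the resting potential and end the action potential. Voltage-gated pores assemble with silent modifier subunits and with auxiliary proteins that change their gating and traffic, inward rectifiers and leak channels hold the membrane at rest, and calcium-activated channels follow the calcium that enters during activity. In hippocampal neurons they shape spike width, firing rate and dendritic excitability. In heart muscle they set the duration of the action potential, which shortens in mice after birth.

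Values were log2 expression values on the chosen probe set of a gene unless another is named, a difference between groups is a difference of means of these values with its standard error (SE), and a gene was called changed at a limma p-value under 0.05 after Benjamini-Hochberg adjustment over all 18194 genes. A cardiomyocyte marker list separated the tissues: 7 of 9 markers were lower in adult hippocampus than in adult heart and 9 of 9 in pup hippocampus than in pup heart. Their summed linear level ranged from 7109 to 7132 in adult hippocampi and from 6712 to 42793 in pup hippocampi, against 158435 to 207924 in adult hearts and 310447 to 383768 in pup hearts. The high pup hippocampus was replicate 1, with Actc1, cardiac actin, at 14.76, 12.49 and 10.31 in the 3 pup hippocampi. Of 8 neuron markers 3 were higher in hippocampus at each age, Snap25 with 11.12 and 11.23 in adult hippocampus, 9.72, 9.90 and 10.12 in pup hippocampus, 7.18 and 6.66 in adult heart and 7.23, 7.47 and 8.06 in pup heart. Nefl and Stmn2, the others of these 3, were lower in adult than in pup hippocampus, Nefl at 12.97 and 13.51 in adults and 15.07, 14.94 and 15.07 in pups and Stmn2 at 10.08 and 9.86 in adults and 13.42, 12.93 and 13.04 in pups, so 1 neuron marker was called higher and 2 lower with age in hippocampus. The remaining neuron markers were not called between tissues, and the list's summed level overlapped between adult hippocampus (77771 to 110959) and adult heart (80522 to 90467). The sum of 4 choroid plexus markers, of which Kcnj13 is 1, was 5711 to 6215 in adult hippocampus, against 49205 to 63089 in pup hippocampus, with Ttr at 11.46 and 12.03 in adult and 15.90, 15.54 and 15.82 in pup hippocampus. Ttr alone carried this sum and was the only one of the 4 called lower with age in hippocampus, while Kl had 8.32 and 8.35 in adults and 7.36, 7.13 and 7.36 in pups and Folr1 overlapped. In heart, 3 of 5 smooth muscle and pericyte, 2 of 4 endothelial and 2 of 4 fibroblast markers were called lower in adults than in pups and none higher. Of all genes 9.38% were called lower and 11.2% higher there. No marker value was 0, and the part of these cell types in the results below was not tested. The 18 hybridization controls, spiked at set amounts, differed by -2.35 between adult and pup hippocampus arrays and by -2.43 between adult and pup heart arrays (adult minus pup, log2), so age also went with hybridization. The part of this in the age differences was not tested.

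Of the 84 genes, 39 were called in at least 1 of 4 comparisons and 45 in none. Between adult hippocampus and adult heart 7 genes were higher (8.33%) and 12 lower (14.3%) in hippocampus, where 9.46% and 10.2% of all genes were called in these directions. In pups 11 genes were higher (13.1%) and 4 lower (4.76%) in hippocampus, beside 8.27% and 7.43% of all genes. With age, 8 genes were higher (9.52%) and 7 lower (8.33%) in adult than in pup hippocampus, beside 8.63% and 7.44% of all genes. In heart 18 were higher (21.4%) and 6 lower (7.14%) in adults than in pups, beside 11.2% and 9.38%. The share higher in adult heart was thus furthest from its background, and the other shares lay nearer to theirs. The median difference of the 84 genes was -0.19 between tissues in adults and -0.07 in pups, and 0.35 between ages in hippocampus and 0.25 in heart. The medians over all genes were -0.030, -0.098, 0.10 and 0.086 in the same order. When the arrays were centred and range scaled, the median age difference of all genes in heart moved to -0.039. In these bulk samples fewer cells of a type and less RNA per cell cannot be told apart.

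**Figure D1:**
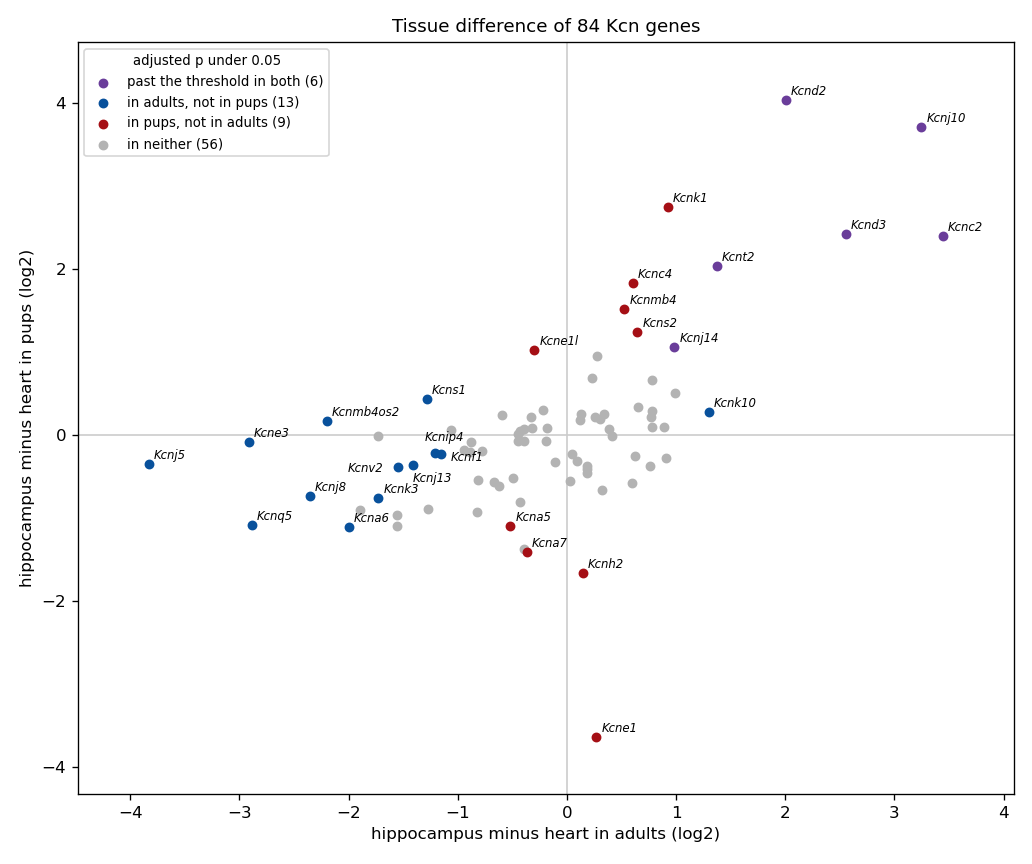
Tissue difference of each of the 84 genes, hippocampus minus heart on the log2 scale, in adults (x axis) and in pups (y axis), coloured by the age at which it passed the limma threshold. The 6 genes called at both ages are all at upper right, Kcnd2 at 2.00 in adults and 4.04 in pups, and Kcne1 is at 0.27 in adults and -3.63 in pups.

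The genes called at both ages were Kcnc2, Kcnd2, Kcnd3, Kcnj10, Kcnj14 and Kcnt2, all 6 higher in hippocampus, and no gene was called lower at both. With age 6 genes were called higher in adults in both tissues (Kcna4, Kcnip4, Kcnj14, Kcnk16, Kcnn4 and Kcnq1ot1), Kcnh7 and Kcnip1 lower in both, and Kcnmb4os2 in opposite directions. The shares of all genes called at both ages or in both tissues were not counted. The test of whether the age difference differed between tissues (the hippocampal minus the cardiac age difference, the interaction) called 1 gene positive and 4 negative, where 1.23% and 2.45% of all genes were called.

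Calls often rested on single samples, among all genes as among these. Without adult hippocampus replicate 1 or 2, 3 of the 84 genes (3.57%) each were called with age in hippocampus, beside 3.48% and 5.79% of all genes, and 6 (7.14%) without pup hippocampus replicate 3, beside 8.96%. For the age comparison in heart, 6 genes (7.14%) were called without adult heart replicate 1 and 10 (11.9%) without replicate 2, beside 6.78% and 8.69% of all genes. Between adult tissues 8 and 10 were called without adult hippocampus replicate 1 and 2, and 7 without either adult heart replicate (8.33% to 11.9%, beside 9.10% to 11.03% of all genes), where the lone remaining sample was assumed to vary like the other groups. The pup tissue count stayed between 11 and 21, where 10.6% to 20.1% of all genes were called. The 4 genes lower in pup hippocampus became 2 without pup hippocampus replicate 1 and 9 without pup heart replicate 3. Among all genes the count lower there moved the same way, from 1351 with every sample to 888 and 1924. The calls that passed whichever sample was left out were Kcna4 and Kcnip1 for age in hippocampus, Kcne1, Kcne3, Kcnip1, Kcnip4, Kcnmb4os2 and Kcnn4 for age in heart, and Kcnc2, Kcnd3, Kcne3, Kcnj10 and Kcnmb4os2 between adult tissues. Between pup tissues 11 of 15 passed every time: Kcnc2, Kcnc4, Kcnd2, Kcnd3, Kcne1, Kcnh2, Kcnj10, Kcnk1, Kcnmb4, Kcns2 and Kcnt2. Of the 5 interaction calls Kcnmb4os2 passed every time. Each other call was lost without at least 1 sample. Of 10 fits that each left out a sample, Kcna4, Kcnh7, Kcnk10, Kcnn1 and Kcns1 lost their age call in heart in 9, Kcnab1 in 8, Kcnk1, Kcnk16 and Kcnn3 in 4, and the other 9 genes in 1 or 2. Between adult tissues Kcnv2 was lost in 8, Kcnj14 in 6 and the other 12 genes in 2 to 4, and for age in hippocampus Kcnc2 and Kcnj5 were lost in 6 and the other 11 in 1 to 4. Kcna5 was lost in 8 fits between pup tissues.

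**Figure D2:**
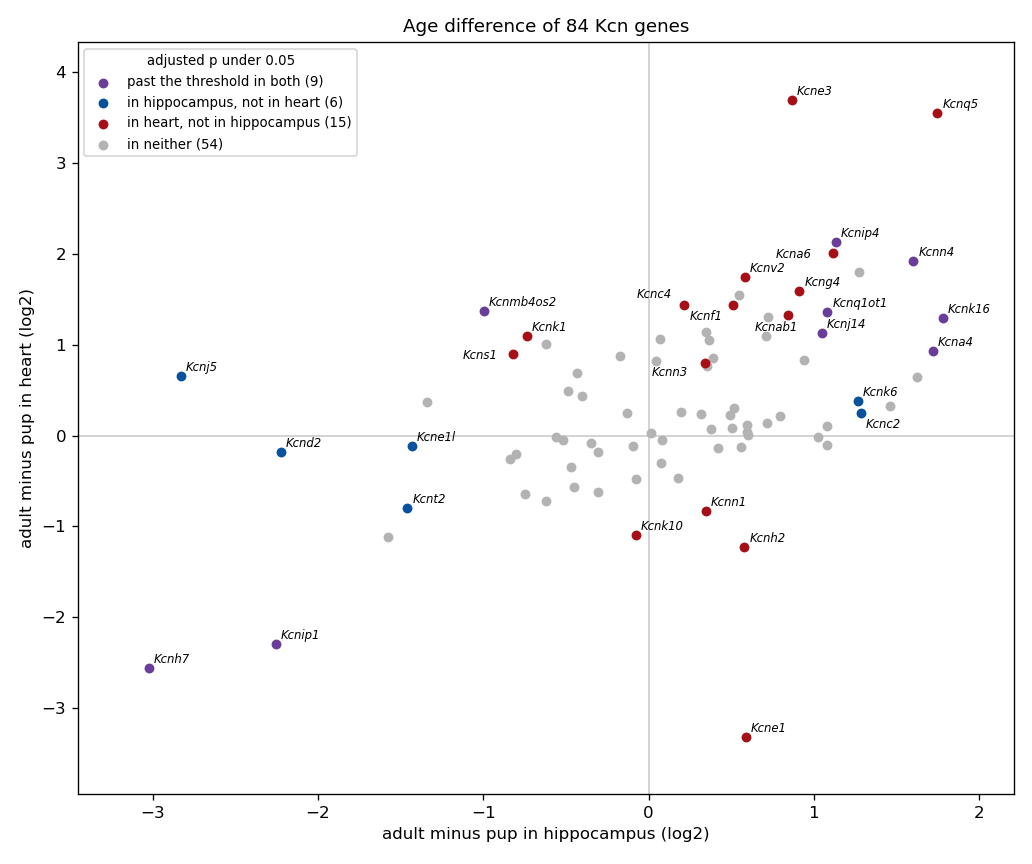
Age difference of each of the 84 genes, adult minus pup on the log2 scale, in hippocampus (x axis) and in heart (y axis), coloured by the tissue in which it passed the limma threshold. Kcne3 and Kcnq5 are highest in heart at 3.70 and 3.55, Kcne1 is lowest in heart at -3.31, and Kcnh7 and Kcnip1 are low in both tissues.

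Of the A-type pore genes, Kcnd2 and Kcnd3 were called higher in hippocampus at both ages on their chosen probe sets. When the probe sets of each gene were averaged, only the pup call of Kcnd2 remained of these. Kcnd2, the main A-type pore of hippocampal pyramidal dendrites, had 9.95 and 10.36 in adult hippocampus, 12.43, 11.98 and 12.73 in pup hippocampus, 8.09 and 8.21 in adult heart and 7.84, 8.06 and 9.10 in pup heart. Both hippocampal groups were above every heart sample, and the adult hippocampi were below every pup hippocampus. The tissue difference was 2.00 ± 0.43 in adults (adjusted p = 0.0114) and 4.04 ± 0.35 in pups (adjusted p = 6.63e-05), or 4.01-fold and 16.5-fold. The age difference was -2.22 ± 0.39 in hippocampus (adjusted p = 0.00746) and -0.18 ± 0.39 in heart (adjusted p = 0.781), and the interaction of -2.04 did not pass (adjusted p = 0.0786) unless pup heart replicate 3 was left out (-2.43, adjusted p = 0.0185). The age call in hippocampus was lost without adult hippocampus replicate 1 (-2.02, adjusted p = 0.0711), and the adult tissue call without adult hippocampus replicate 2 (1.80, adjusted p = 0.0820), adult heart replicate 1 (1.95, adjusted p = 0.0661) or adult heart replicate 2 (2.06, adjusted p = 0.0560). Kcnd3, the related pore that also carries transient outward current in heart, had 12.02 and 12.35 in adult hippocampus, 11.89, 11.67 and 12.76 in pup hippocampus, 9.65 and 9.61 in adult heart and 10.29, 9.12 and 9.65 in pup heart. On its chosen probe set Kcnd3 was higher in hippocampus at both ages, by 2.55 ± 0.44 in adults and 2.42 ± 0.36 in pups, and its age differences of 0.080 in hippocampus and -0.051 in heart were smaller than their SE of 0.40. Kcnd1, the other pore of the family, was called in no comparison, with differences between 0.24 and 0.34.

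Of the 6 genes higher in hippocampus at both ages, Kcnd2, Kcnd3, Kcnj10 and Kcnt2 had 1 promoter window each in the RefSeq promoter table (GRCm38.p6). Their 250 bases before the transcription start are shown because these genes were called higher in hippocampus at both ages on their chosen probe sets. Capitals mark the GC box GGGCGG and the E-box CAGCTG, searched on both strands, which do not overlap.
Kcnd2, chr6:21215096-21215345, + strand: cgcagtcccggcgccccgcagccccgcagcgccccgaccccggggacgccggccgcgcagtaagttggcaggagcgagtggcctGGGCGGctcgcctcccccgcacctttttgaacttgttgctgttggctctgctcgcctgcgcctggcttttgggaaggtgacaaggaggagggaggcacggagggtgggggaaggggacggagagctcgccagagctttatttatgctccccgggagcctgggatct
Kcnd3, chr3:105451640-105451889, + strand: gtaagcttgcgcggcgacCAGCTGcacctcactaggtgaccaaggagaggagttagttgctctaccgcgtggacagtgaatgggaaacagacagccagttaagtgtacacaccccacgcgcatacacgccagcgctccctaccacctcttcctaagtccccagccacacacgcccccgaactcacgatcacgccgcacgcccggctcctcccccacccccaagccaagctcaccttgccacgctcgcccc
Kcnj10, chr1:172340960-172341209, + strand: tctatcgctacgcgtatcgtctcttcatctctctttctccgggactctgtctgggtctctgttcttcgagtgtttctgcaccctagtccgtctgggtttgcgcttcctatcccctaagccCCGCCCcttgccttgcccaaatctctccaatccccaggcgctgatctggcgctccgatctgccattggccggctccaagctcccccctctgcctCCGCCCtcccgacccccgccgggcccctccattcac
Kcnt2, chr1:140245468-140245717, + strand: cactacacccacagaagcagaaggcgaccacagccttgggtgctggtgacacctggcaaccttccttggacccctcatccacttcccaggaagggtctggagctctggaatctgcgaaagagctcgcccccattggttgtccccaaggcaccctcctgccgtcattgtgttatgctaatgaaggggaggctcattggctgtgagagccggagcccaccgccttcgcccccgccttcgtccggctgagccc
The GC box occurred 1 time before Kcnd2 and 2 times before Kcnj10, there as its reverse complement CCGCCC. It was held by 32.7% of all 32851 windows and by 44.9% of the Kcn windows. The E-box occurred 1 time before Kcnd3, and 13.0% of all windows and 24.7% of the Kcn windows held it. Neither was found before Kcnt2. The GC content was 68.8% for Kcnd2, 62.8% for Kcnd3, 62.0% for Kcnj10 and 61.6% for Kcnt2, beside a median of 52.4% over all windows. These matches are descriptions of the letters and were not tied to the expression values.

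**Figure D3:**
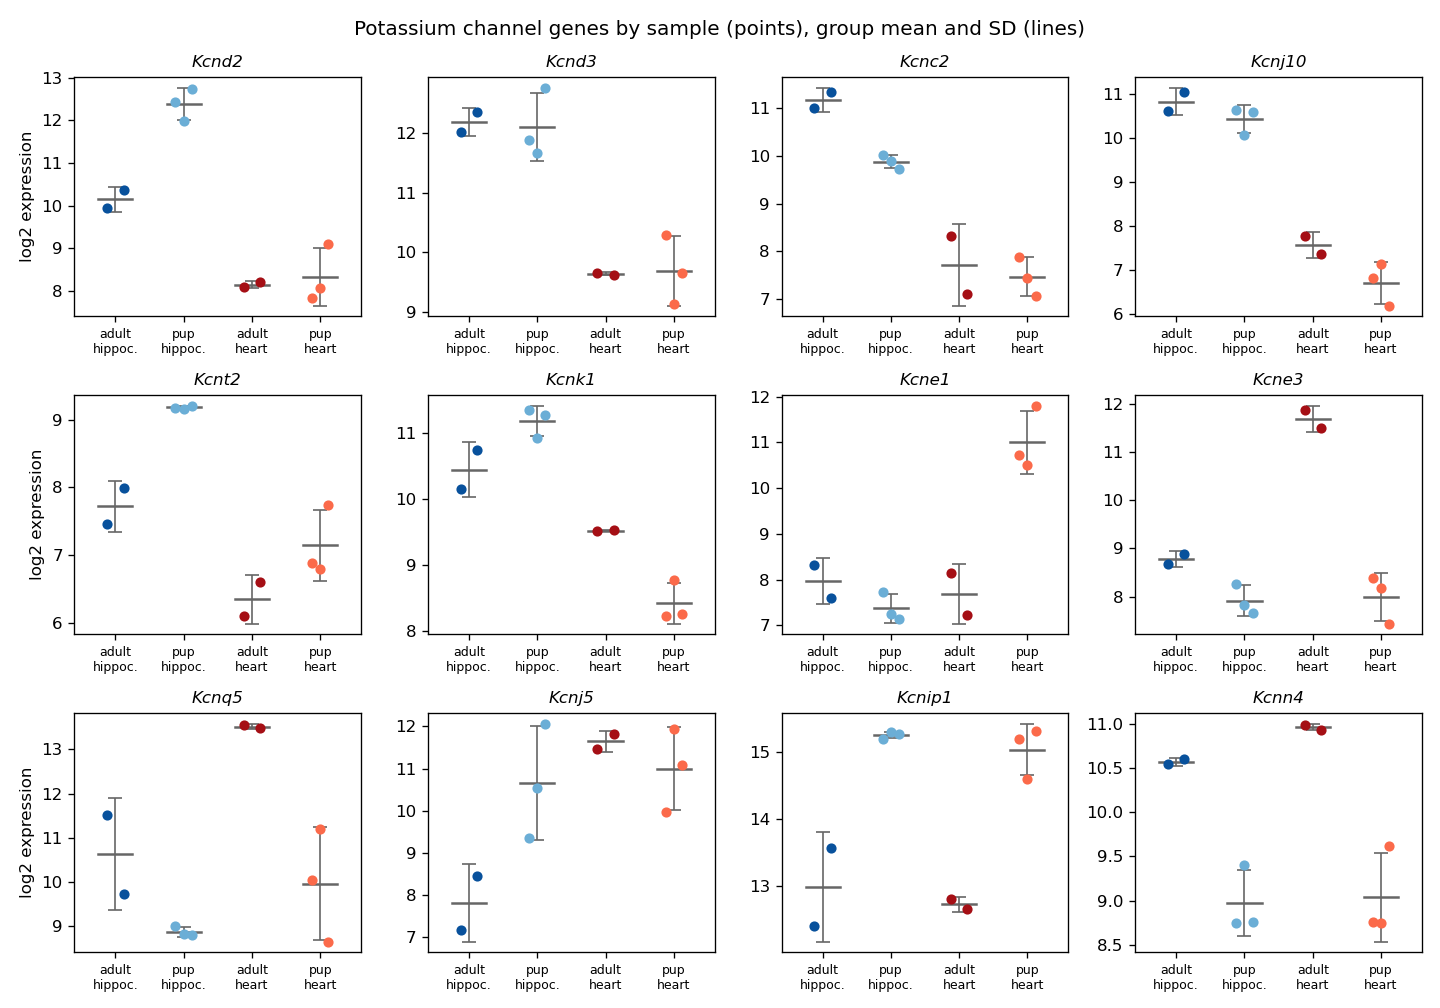
Log2 expression of 12 potassium channel genes by biological sample (points), with group mean and SD (lines), in adult and pup hippocampus and adult and pup heart. The upper row and Kcnt2 and Kcnk1 are higher in hippocampus, Kcne1 stands apart in pup heart (10.51 to 11.80), Kcne3 and Kcnq5 in adult heart, Kcnj5 is lowest in adult hippocampus, and Kcnip1 and Kcnn4 separate the ages.

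The KChIP genes encode calcium-binding proteins that bind the A-type pores. Kcnip1 had 12.42 and 13.56 in adult hippocampus, 15.19, 15.29 and 15.26 in pup hippocampus, 12.81 and 12.66 in adult heart and 15.19, 14.60 and 15.30 in pup heart, so that no adult sample reached a pup sample. It was lower in adults by 2.26 in hippocampus (adjusted p = 0.00452) and 2.30 in heart (adjusted p = 0.00308) and was called in neither tissue comparison. Kcnip4 had 8.71 and 9.32 in adult hippocampus, 8.23, 7.74 and 7.67 in pup hippocampus, 10.00 and 10.44 in adult heart and 7.85, 8.41 and 8.01 in pup heart. It was higher in adults by 1.13 ± 0.30 in hippocampus and 2.14 ± 0.30 in heart, and lower in adult hippocampus than in adult heart, a difference of -1.21 ± 0.33 on the chosen probe set. Kcnip2, the cardiac member, and Kcnip3 were called in no comparison, with differences between -0.47 and 0.25.

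Shaker-type pores and their beta subunits set spike threshold and repolarization. Kcna4, an A-type member, had 9.58 and 9.90 in adult hippocampus, 7.90, 8.31 and 7.83 in pup hippocampus, 8.74 and 8.95 in adult heart and 7.93, 8.25 and 7.56 in pup heart, with each adult group above its pup group. Kcna4 was higher in adults by 1.72 ± 0.27 in hippocampus (adjusted p = 0.00493) and by 0.93 ± 0.27 in heart (adjusted p = 0.0412). Kcna6 had 11.16 and 11.46 in adult hippocampus, 13.67 and 12.95 in adult heart and 11.64, 11.79 and 10.48 in pup heart. On its chosen probe set Kcna6 was higher in adult than in pup heart by 2.01 ± 0.41, and lower in adult hippocampus than in adult heart by 2.00, while its average over 3 probe sets differed by 0.61 and 0.13 in these comparisons and was not called. Kcna5, which carries an ultrarapid current in heart, and Kcna7 were lower in pup hippocampus than in pup heart, by 1.10 and 1.40. Without pup hippocampus replicate 1, the sample with the high cardiac markers, the difference no longer passed for Kcna5 (-1.13, adjusted p = 0.0804) or Kcna7 (-1.19, adjusted p = 0.0604). Kcna1 and Kcna2, axonal pores, and Kcna3 were called in no comparison on their chosen probe sets, where the largest difference was 0.94 with age for Kcna3 in hippocampus. On 1439872_at Kcna2 was higher in hippocampus by 0.94 in adults and 2.19 in pups and higher in adult than in pup heart by 1.26. In all, 2 of 7 genes of the family were higher in adult heart, 1 was higher in adult hippocampus and none was lower with age. Of all genes 11.2% were higher and 9.38% lower with age in heart, and 8.63% and 7.44% in hippocampus. Of the 3 beta subunit genes Kcnab1 was called, at 12.41 and 12.49 in adult heart and 11.27, 11.78 and 10.30 in pup heart, a difference of 1.33 ± 0.37, while Kcnab2 and Kcnab3 were called in no comparison, with differences between -0.92 and 1.80.

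The fast delayed rectifier genes let neurons fire at high rates. Kcnc2, a pore of fast-spiking interneurons, had 10.99 and 11.34 in adult hippocampus, 10.02, 9.89 and 9.73 in pup hippocampus, 8.32 and 7.12 in adult heart and 7.89, 7.45 and 7.07 in pup heart. Every hippocampal sample was above every heart sample, by 3.44 ± 0.41 in adults (adjusted p = 0.000860) and 2.41 ± 0.33 in pups (adjusted p = 0.00122), and the adult hippocampi were above the pup hippocampi by 1.29 ± 0.37 (adjusted p = 0.0472). The adult hippocampi were thus the highest and the hearts of both ages overlapped. Kcnc4 had 10.67 and 10.26 in adult hippocampus, 10.13, 10.53 and 10.10 in pup hippocampus, 9.76 and 9.96 in adult heart and 8.83, 8.41 and 8.02 in pup heart. On its chosen probe set, whose name ends in _s_at, it was higher in hippocampus in pups by 1.83 ± 0.26, was higher in adult than in pup heart by 1.44 ± 0.29, and the adult tissue difference of 0.61 did not pass (adjusted p = 0.224). On its other probe set, 1425089_at, the pup tissue difference was 0.14 and the cardiac age difference 0.30, and neither was called. The chosen probe set of Kcnc1 lay between 14.69 and 15.34 in every sample and was called in no comparison.

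Of the 9 silent modifier genes, which form channels only with other pores, 4 were higher in adult than in pup heart and none was lower, where 11.2% and 9.38% of all genes were called. Kcnv2 had 11.08 and 11.31 in adult heart and 9.58, 9.57 and 9.19 in pup heart. Kcnf1 had 10.10 and 9.52 in adult heart and 8.44, 8.53 and 8.16 in pup heart, and Kcng4 had 10.26 and 10.39 in adult heart and 8.02, 8.75 and 9.43 in pup heart. Their age differences were 1.75 ± 0.42, 1.43 ± 0.29 and 1.59 ± 0.40, and in no case did adult and pup hearts overlap. Kcnv2, Kcnf1 and Kcns1 were also lower in adult hippocampus than in adult heart, by 1.55, 1.16 and 1.29. The Kcnv2 difference rested on the adult hippocampi, at -0.76, adjusted p = 0.219 without replicate 1 and -2.34 without replicate 2. For Kcns1 the hippocampus held 7.33 and 7.75 in adults and 8.05, 8.39 and 8.65 in pups, and the heart 8.78 and 8.88 in adults and 7.62, 7.94 and 8.21 in pups. Its age difference was 0.90 ± 0.27 in heart, which was called, and -0.82 ± 0.27 in hippocampus, which was not. The interaction of -1.72 ± 0.39 passed (adjusted p = 0.0467) but was lost in 9 of 10 fits that left out a sample. Kcns2 was higher in pup hippocampus (10.25, 9.96 and 10.55) than in pup heart (8.97, 8.99 and 9.06), by 1.25 ± 0.22. Kcng1, Kcng2, Kcns3 and Kcnv1 were called in no comparison, with differences between -1.58 and 1.08.

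Among the genes of the slow and rapid cardiac delayed rectifiers, Kcne1 and Kcnh2 stood apart in pup heart. Kcne1, the auxiliary subunit that slows the Kcnq1 channel, had 8.32 and 7.61 in adult hippocampus, 7.74, 7.25 and 7.13 in pup hippocampus, 8.15 and 7.23 in adult heart and 10.72, 10.51 and 11.80 in pup heart. The pup hearts were above all other samples, which overlapped among themselves. Kcne1 was 3.31 lower in adult than in pup heart (SE 0.45, adjusted p = 0.00211) and 3.63 lower in pup hippocampus than in pup heart (SE 0.40, adjusted p = 0.000316). The hippocampal age difference was 0.59 ± 0.45 and the interaction 3.90 ± 0.64 (adjusted p = 0.0152). Without adult hippocampus replicate 1 the interaction was 3.55, adjusted p = 0.0781, and without adult heart replicate 2 it was 3.44, adjusted p = 0.0652. The second probe set of Kcne1 was also lower in pup hippocampus than in pup heart, by 1.85. That second probe set was not called with age in heart or for the interaction. The cardiomyocyte marker sum was also lower in adult than in pup hearts, with 3 of 9 markers called lower and 0 higher, and the part of that in the Kcne1 difference was not tested. Kcnh2, the pore of the rapid delayed rectifier, had 8.36 and 8.37 in adult heart against 9.33, 9.38 and 10.08 in pup heart, a difference of -1.23 ± 0.31, and 7.87, 7.78 and 8.15 in pup hippocampus, 1.66 below pup heart. Kcnq1, the pore that Kcne1 joins, had 13.45 and 14.42 in adult heart and 13.64, 11.85 and 11.69 in pup heart and was not called (1.54 ± 0.57, adjusted p = 0.0891). The technical arrays of its adult heart replicate 1 differed by 2.76.

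Kcne3, another single-span subunit that can join Kcnq1, ran the other way with age. It had 8.67 and 8.89 in adult hippocampus, 8.27, 7.82 and 7.65 in pup hippocampus, 11.89 and 11.50 in adult heart and 8.39, 8.17 and 7.44 in pup heart, so the adult hearts stood above every other sample. It was higher in adult than in pup heart by 3.70 ± 0.33, or 13-fold (adjusted p = 0.000469), lower in adult hippocampus than in adult heart by 2.92 (adjusted p = 0.000996), and the pup tissue difference was -0.087 ± 0.29 and not called. The interaction was -2.83 ± 0.46 (adjusted p = 0.0153) and no longer passed without adult hippocampus replicate 1 (-2.72, adjusted p = 0.0775), adult hippocampus replicate 2 (-2.94, adjusted p = 0.0553) or adult heart replicate 1 (-2.64, adjusted p = 0.0762). Kcne1l had 6.49 and 6.62 in adult hippocampus, lower than 8.11, 8.15 and 7.70 in pup hippocampus, and the pup hippocampi were above the pup hearts with 6.67, 6.77 and 7.44. Kcne2 and Kcne4 were called in no comparison. Of the genes of neuronal M-type channels, Kcnq5 had 11.52 and 9.73 in adult hippocampus, 9.01, 8.83 and 8.80 in pup hippocampus, 13.56 and 13.48 in adult heart and 10.05, 11.19 and 8.66 in pup heart. On this probe set it was higher in adult than in pup heart by 3.55 ± 0.69 and lower in adult hippocampus than in adult heart by 2.89, while the technical arrays of adult hippocampus replicate 1 differed by 3.36. Without adult hippocampus replicate 2 that tissue difference was -1.99, adjusted p = 0.182, without adult heart replicate 1 it was -2.85, adjusted p = 0.116 and without adult heart replicate 2 -2.93, adjusted p = 0.108. Kcnq3, which joins other members in neuronal M-type channels, was called in no comparison.

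Kcnh7, an ERG-type pore best known from brain, had the largest fall with age in hippocampus among the 84 genes. It had 8.74 and 8.89 in adult hippocampus, 11.15, 12.27 and 12.08 in pup hippocampus, 9.71 and 11.03 in adult heart and 13.97, 13.58 and 11.25 in pup heart. It was lower in adults by 3.02 in hippocampus (SE 0.76, adjusted p = 0.0279) and by 2.56 in heart (SE 0.76, adjusted p = 0.0427). The hippocampal groups did not overlap, and neither did the hearts, although these spread more widely. Of the other EAG-family genes, Kcnh1, Kcnh3, Kcnh5 and Kcnh8 were called in no comparison, with differences between -0.75 and 1.46.

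The inward rectifiers held the gene with the smallest adjusted p between pup tissues. Kcnj10, the main potassium-buffering channel of astrocytes, had 10.60 and 11.04 in adult hippocampus, 10.63, 10.06 and 10.59 in pup hippocampus, 7.77 and 7.36 in adult heart and 6.82, 7.13 and 6.20 in pup heart. Every hippocampal sample was above every heart sample, and the differences were 3.25 ± 0.36 in adults (adjusted p = 0.000649) and 3.71 ± 0.30 in pups (adjusted p = 4.13e-05), or 9.5-fold and 13.1-fold. The age difference in hippocampus, 0.39 ± 0.33, did not pass. Of 5 astrocyte markers, 1 was higher and 1 lower in hippocampus in adults, and 2 were higher in pups. Kcnj14, an inward rectifier of motor neurons, had 8.95 and 9.30 in adult hippocampus, 8.32, 8.27 and 7.64 in pup hippocampus, 8.20 and 8.08 in adult heart and 7.11, 7.03 and 6.90 in pup heart. It passed all 4 comparisons, with differences of 1.05 and 1.12 with age in hippocampus and heart and 0.99 and 1.06 between tissues in adults and pups. Its lowest hippocampal values, in pups, overlapped the adult hearts.

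Kcnj5, a pore of the acetylcholine-gated channel of heart, had 7.17 and 8.47 in adult hippocampus, 9.36, 10.53 and 12.05 in pup hippocampus, 11.47 and 11.82 in adult heart and 9.97, 11.93 and 11.08 in pup heart. The adult hippocampi were below all other samples, 3.83 below adult heart (SE 0.87, adjusted p = 0.0149) and 2.83 below pup hippocampus (SE 0.79, adjusted p = 0.0412). Technical arrays of adult hippocampus replicate 2 differed by 2.58, and without adult hippocampus replicate 1 the age difference in hippocampus was -2.18, adjusted p = 0.251 and the adult tissue difference -3.18, adjusted p = 0.0993. Its partner Kcnj3 and the neuronal members Kcnj6 and Kcnj9 were called in no comparison on their chosen probe sets, with differences between -0.62 and 0.77. Other probe sets of all 3 were called higher in adult than in pup hippocampus, Kcnj3 by 1.42 on 1444025_at, Kcnj6 by 1.28 on 1425707_a_at and Kcnj9 by 1.15 on 1428602_at. Kcnj8, the pore of vascular ATP-sensitive channels, was lower in adult hippocampus (8.09 and 8.03) than in adult heart (10.32 and 10.51) by 2.35 ± 0.60, and without adult hippocampus replicate 2 the value was -2.32, adjusted p = 0.111. Kcnj13, known from choroid plexus, had 10.45 and 9.86 in adult hippocampus, 10.08, 10.31 and 10.60 in pup hippocampus and 11.42 and 11.71 in adult heart, and its adult tissue difference was -1.41 ± 0.32. Adult and pup hippocampi overlapped in Kcnj13. Kcnj2 and Kcnj12, pores of the cardiac resting current, were called in no comparison, with differences between -0.78 and 1.31, nor were Kcnj1, Kcnj4, Kcnj11, Kcnj15 and Kcnj16, with differences between -1.38 and 1.63. In all, 1 of 15 inward rectifiers was higher and 1 lower with age in hippocampus, beside 8.63% and 7.44% of all genes. In heart 1 was higher with age, beside 11.2% of all genes.

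The leak channel genes changed in several directions. Kcnk1 had 10.15 and 10.74 in adult hippocampus, 11.34, 10.92 and 11.28 in pup hippocampus, 9.52 and 9.53 in adult heart and 8.23, 8.78 and 8.27 in pup heart, with all hippocampi above all hearts. The tissue difference was 0.92 ± 0.30 in adults (adjusted p = 0.0625) and 2.76 ± 0.25 in pups (adjusted p = 8.64e-05). The age difference was 1.10 ± 0.28 in heart, which was called, and -0.73 ± 0.28 in hippocampus, which was not. The interaction was -1.83 ± 0.39 (adjusted p = 0.0400) and was lost in 9 of 10 fits that left out a sample. On the average of the probe sets of Kcnk1 the interaction was -0.58 and was not called. Kcnk3, an acid-sensitive channel of heart, was lower in adult hippocampus (9.12 and 9.48) than in adult heart (10.94 and 11.11), by 1.73. Kcnk10, a mechanically gated member, had 10.33 and 10.10 in adult hippocampus, 8.76 and 9.07 in adult heart and 10.47, 10.14 and 9.42 in pup heart, so it was higher in adult hippocampus by 1.30 ± 0.34 and lower in adult than in pup heart by 1.10. Kcnk16, known from pancreatic islets, was higher in adults in hippocampus (11.53 and 12.30 against 9.90, 10.09 and 10.42 in pups) and heart (11.61 and 10.66 against 9.64, 10.21 and 9.68 in pups), while the technical arrays of adult heart replicate 1 differed by 3.46. Without that replicate the age difference of Kcnk16 in heart was 0.82, against 1.29 with it, and it was not called. Kcnk6 was higher in adult (10.75 and 10.37) than in pup hippocampus (9.27, 9.50 and 9.12) by 1.27 ± 0.29. Kcnk2, the mechanically gated relative of Kcnk10, was called in no comparison, nor were Kcnk4, Kcnk5, Kcnk7, Kcnk12, Kcnk13 and Kcnk15, and the differences of these 7 genes lay between -0.88 and 1.14.

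Among the calcium-activated and sodium-activated channel genes, Kcnn4 separated the ages and Kcnt2 was called higher in hippocampus at each age. Over both ages together the Kcnt2 values of the tissues overlapped. Kcnn4, an intermediate-conductance channel of blood and immune cells, had 10.54 and 10.60 in adult hippocampus, 8.75, 9.40 and 8.76 in pup hippocampus, 10.99 and 10.94 in adult heart and 8.75, 8.74 and 9.62 in pup heart. Adults and pups did not overlap in either tissue, and the differences were 1.60 ± 0.33 in hippocampus (adjusted p = 0.0131) and 1.93 ± 0.33 in heart (adjusted p = 0.00477). None of the 4 microglia markers was called in any comparison. Kcnt2, a sodium-activated pore, had 7.45 and 7.99 in adult hippocampus, 9.18, 9.16 and 9.20 in pup hippocampus, 6.09 and 6.60 in adult heart and 6.88, 6.80 and 7.74 in pup heart. It was higher in hippocampus by 1.37 ± 0.36 in adults and 2.04 ± 0.30 in pups, and lower in adult than in pup hippocampus by 1.46. Kcnmb4, the neuronal beta subunit of the large-conductance channel, was higher in pup hippocampus (10.41, 10.33 and 10.11) than in pup heart (9.10, 9.10 and 8.11) by 1.52 ± 0.33. The chosen probe set of its pore gene Kcnma1, and Kcnmb1 of smooth muscle and Kcnmb2, were called in no comparison, as was the small-conductance pore Kcnn2, and their differences lay between -1.27 and 1.09. In adult heart Kcnn3 was higher than in pup heart by 0.80 ± 0.21 and Kcnn1 lower, a difference of -0.83 ± 0.25. Kcnt1 and Kcnu1 were called in no comparison.

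Of the 3 noncoding RNAs, 1 moved in opposite directions in the tissues. Kcnmb4os2, transcribed from the strand opposite to Kcnmb4 on chromosome 10, had 7.08 and 6.93 in adult hippocampus, 8.01, 7.69 and 8.30 in pup hippocampus, 9.13 and 9.27 in adult heart and 8.03, 7.85 and 7.60 in pup heart. It was lower in adult than in pup hippocampus by 1.00 (adjusted p = 0.0268), higher in adult than in pup heart by 1.38 (adjusted p = 0.00592) and lower in adult hippocampus than in adult heart by 2.20 (adjusted p = 0.000996). The interaction of -2.37 ± 0.35 (adjusted p = 0.00976) passed whichever sample was left out. Kcnmb4 itself differed with age by 0.069 in hippocampus and 1.06 in heart and was not called. Kcnq1ot1, the imprinted transcript antisense to Kcnq1, had 10.40 and 10.50 in adult hippocampus, 9.28, 9.50 and 9.33 in pup hippocampus, 11.46 and 11.08 in adult heart and 10.16, 9.95 and 9.62 in pup heart, higher in adults by 1.08 ± 0.24 in hippocampus and 1.36 ± 0.24 in heart. These calls held for the chosen one of 6 probe sets, whose average differed by 0.14 in hippocampus and 0.073 in heart and was not called. Kcnmb4os1, a second such transcript by its name, varied from 6.43 to 9.44 over all samples and was not called.

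Of 30 listed partners of these channels outside the symbol rule, 22 were measured. Between adult tissues 4 were higher and 1 lower in hippocampus, beside 9.46% and 10.2% of all genes, and between pup tissues 2 were higher and 1 lower, beside 8.27% and 7.43%. With age, none was higher and 2 lower in adult hippocampus, beside 8.63% and 7.44%, and 1 was higher and 4 lower in adult heart, beside 11.2% and 9.38%. Abcc9, the sulfonylurea receptor that joins Kcnj8, was lower in hippocampus than in heart by 2.79 in adults and 4.77 in pups. It was lower in adult than in pup heart by 3.38, while Kcnj8 was higher there in adults by 1.00, which was not called. The sum of the 5 smooth muscle and pericyte markers was 50772 to 52634 in adult heart and 72163 to 132693 in pup heart. The part of these cells in the fall of Abcc9 was not tested. The scaffold Dlg1 was lower in adults by 2.35 in hippocampus and 2.10 in heart. Dpp10, an auxiliary subunit of A-type channels, was higher in adult hippocampus than in adult heart by 1.34. Dlg3 and the vesicle protein Vamp2 were higher in hippocampus at both ages.

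The choice of probe set mattered for many genes. Over the 167 probe sets, 18 were higher and 18 lower in adult hippocampus than in adult heart, against 11.1% and 11.7% of the 34958 probe sets naming 1 gene, and 21 were higher and 8 lower in pups, against 8.72% and 7.6%. With age 18 were higher and 7 lower in hippocampus, against 8.15% and 7.28%, and 32 higher and 6 lower in heart, against 11.4% and 9.47%. The interaction called 1 positive and 6 negative, against 1.38% and 2.63%. The 4 probe sets of Kcnd2 did not move together. The chosen one, 1422835_at, had the values given above, and 1447764_at had 10.31 and 10.78 in adult hippocampus, 9.95, 9.66 and 9.39 in pup hippocampus, 9.06 and 8.96 in adult heart and 8.66, 8.98 and 8.72 in pup heart. Both were higher in hippocampus at both ages, the second by 1.54 ± 0.28 in adults and 0.88 ± 0.23 in pups. With age in hippocampus they were called in opposite directions, at -2.22 for the chosen probe set and 0.88 ± 0.26 for the second (adjusted p over all probe sets 0.0477). The third, 1450773_at, had 9.01 and 9.09 in adult hippocampus, 9.60, 9.11 and 9.63 in pup hippocampus, 10.11 and 9.21 in adult heart and 9.25, 8.96 and 8.79 in pup heart and was called in no comparison. The fourth, 1422834_at, had 7.80 and 7.14 in adult hippocampus, 8.19, 8.05 and 7.85 in pup hippocampus, 8.75 and 8.07 in adult heart and 6.94, 7.54 and 6.08 in pup heart, and was higher in adult than in pup heart by 1.56 ± 0.42. On it the adult hippocampi lay below the adult hearts and the pup hippocampi above the pup hearts. The direction of the Kcnd2 age difference in hippocampus therefore held for the chosen probe set, and the tissue difference for both probe sets with the highest means.

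**Figure D4:**
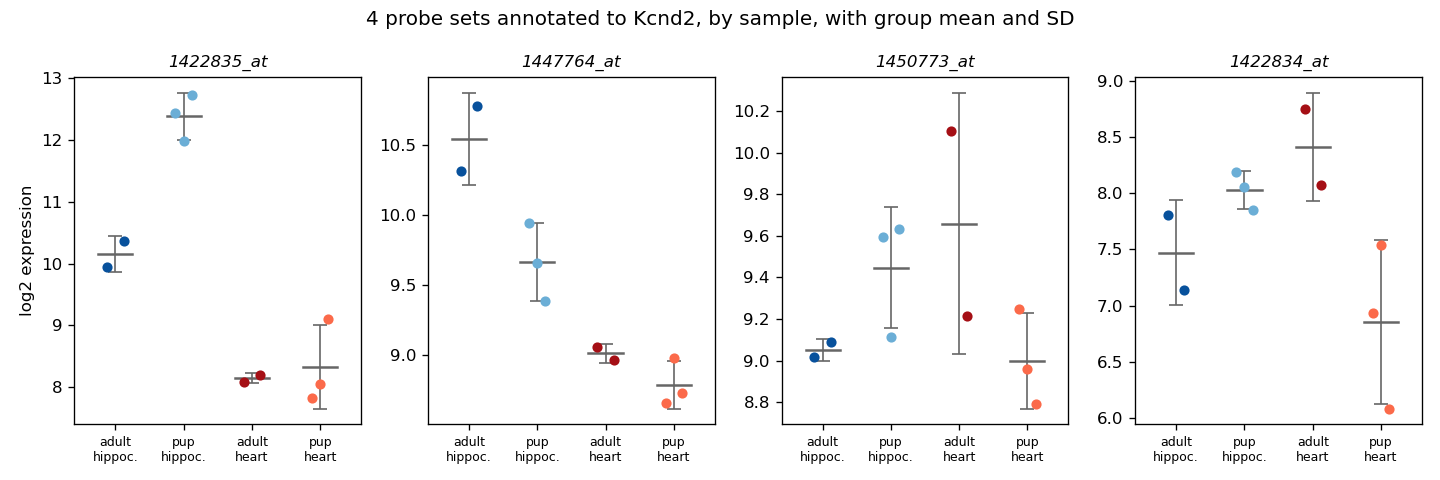
Log2 expression on the 4 probe sets annotated to Kcnd2 by biological sample (points), with group mean and SD (lines), in adult and pup hippocampus and adult and pup heart. On 1422835_at the pup hippocampi are highest (11.98 to 12.73), on 1447764_at the adult hippocampi (10.31 and 10.78), and on the other probe sets hippocampal and heart samples overlap.

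Averaging the probe sets of each gene ended 21 of the 72 named calls. It cannot change the values of a gene with 1 probe set, and every call it ended was of a gene with several. Kcnd2 then differed by 0.50 between adult tissues and -0.57 with age in hippocampus, both not called, while its pup tissue call held. Kcnd3 differed by 0.18 between adult and 0.58 between pup tissues, and Kcnip1 by 0.012 with age in hippocampus and -0.31 in heart, and none of these was called. The other calls so lost were those of Kcnj5, Kcnn4 and Kcnq1ot1 for age in hippocampus, Kcna6, Kcnab1, Kcnf1, Kcnk10, Kcnn1 and Kcnq1ot1 for age in heart, Kcns2 between pup tissues, Kcna6, Kcnf1, Kcnip4 and Kcnk10 between adult tissues, and the interaction of Kcnk1. Keeping plain _at probe sets alone ended 6 of the 64 calls whose gene had such a probe set. They were those of Kcnc4, Kcnip4 and Kcnn1 for age in heart, Kcnc4 between pup tissues, and Kcnip4 and Kcnk3 between adult tissues. A gene whose chosen probe set was itself plain kept its value. Kcnn1 stayed at -0.83 in this way, and only its adjusted limma p moved, to 0.0519.

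Kcnip1 likewise had 1 probe set lower and another, 1454504_at, higher in adult hippocampus (1.62 ± 0.41). Kcna6 and Kcnd3 were called both ways between adult tissues: Kcna6 was 1.61 ± 0.28 higher in hippocampus on 1421568_at, and Kcnd3 was lower on 1447513_at, at -1.33 ± 0.26. Kcnip4 had 2 further probe sets, both called higher in adult hippocampus than in pup hippocampus, with adult tissue differences of 0.87 and 0.71, opposite in sign to the chosen one and not called. Few genes with several probe sets that were called on the chosen one had another called the same way. They were 2 of 9 between adult tissues, 2 of 6 between pup tissues, 1 of 7 with age in hippocampus and 2 of 14 in heart. For the interaction there were 0 of 2. Between adult tissues 10 of the 46 genes with several probe sets were called on another probe set and not on the chosen one. Likewise there were 10 between pup tissues, 5 with age in hippocampus and 10 with age in heart. With age in heart these were Kcna2, Kcnd1, Kcnd2, Kcnh1, Kcnh3, Kcnj1, Kcnj3, Kcnj6, Kcns3 and Kcnv1. Between pup tissues they were Kcna2, Kcnc1, Kcnd1, Kcnh3, Kcnj3, Kcnj5, Kcnma1, Kcnq1ot1, Kcnq5 and Kcnv1, and between adult tissues Kcna2, Kcna4, Kcnab2, Kcnc1, Kcnh1, Kcnh3, Kcnj6, Kcnma1, Kcnq1ot1 and Kcnv1. Kcnma1, the large-conductance calcium-activated pore, had 10.50 and 10.99 in adult hippocampus, 10.89, 9.88 and 9.61 in pup hippocampus, 6.91 and 7.86 in adult heart and 8.82, 8.42 and 8.23 in pup heart on 1424848_at. On that probe set it was higher in hippocampus by 3.36 ± 0.47 in adults and 1.64 ± 0.38 in pups. Kcnc1, a pore of fast-spiking neurons, differed by 2.34 ± 0.34 in adults and 1.38 ± 0.28 in pups on 1443855_at, and was higher in adult than in pup hippocampus by 1.34 ± 0.31. Kcnv1, a modifier of brain, differed by 1.99 ± 0.28 in adults and 2.48 ± 0.23 in pups on 1429741_at. The 11 genes whose chosen probe set averaged above 14 included 1 called gene, Kcnip1, against 38 of the 73 others, and 5 of these 11 had another probe set that was called. That level was set after the values were seen.

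**Figure D5:**
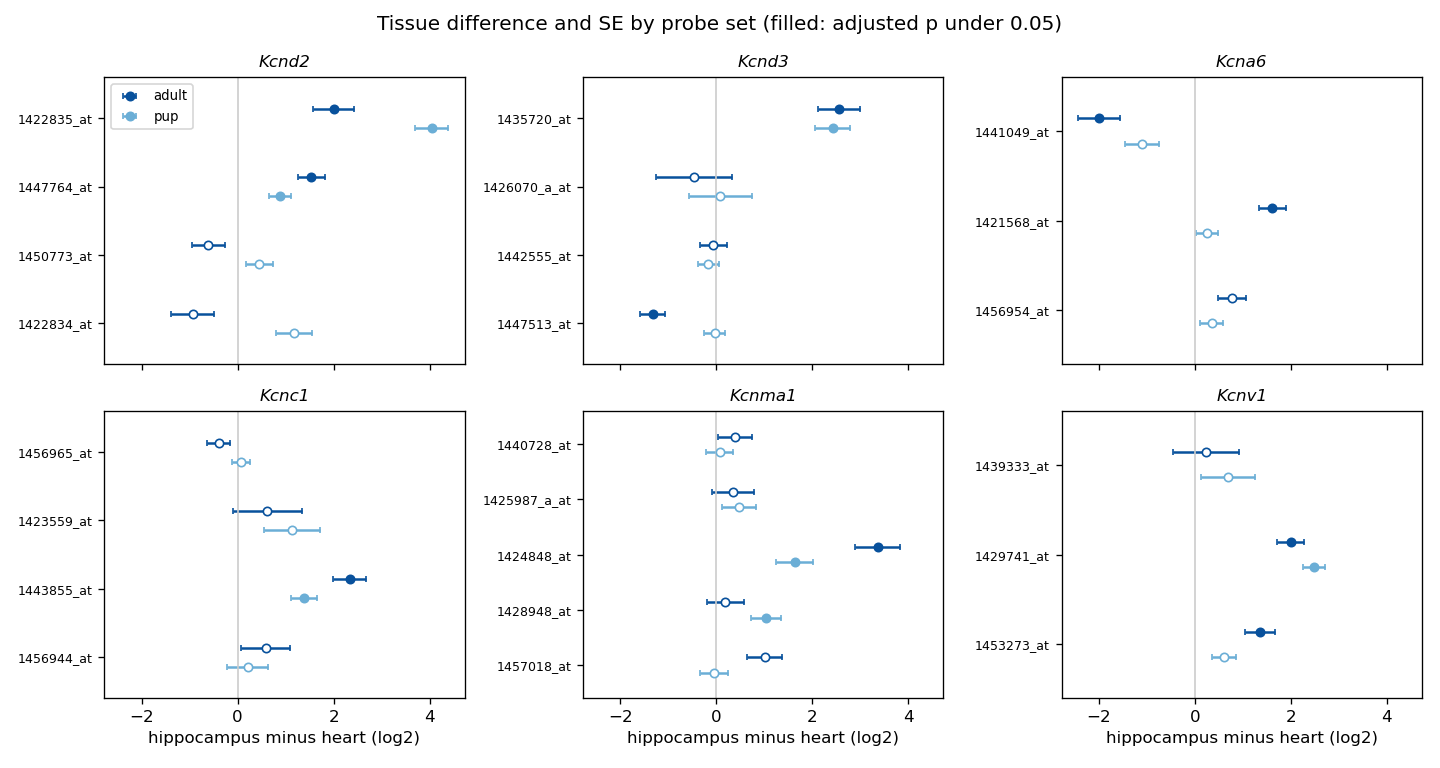
Tissue difference, hippocampus minus heart on the log2 scale with its SE, for each probe set of 6 genes in adults (dark) and pups (light), with filled points past the threshold over all probe sets. Kcna6 and Kcnd3 have filled points on both sides of 0 in adults, and Kcnc1, Kcnma1 and Kcnv1 are unfilled on their brightest probe set, at the top, and filled at positive differences below it.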

How the data were processed

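RNA from 10 biological samples was measured on 14 arrays. The deposited values are log2 expression values that the authors made with RMA 2.0, for 45101 probe sets. They ran from 2.67 to 16.0 with array medians of 8.73 to 8.98, and the centring and range scaling that the methods describe was not seen in them. Probe sets were named from the platform annotation (34958 name 1 gene, 932 several, 9211 none), arrays of the same adult replicate were averaged first, and the 4 group means were fitted with limma 3.58.1 in R 4.3.3 over all 18194 genes. Tests were two-sided with Benjamini-Hochberg adjustment, and a second fit ran over the probe sets. Residual degrees of freedom were 6, and the median SE of a difference was 0.30 to 0.37 between groups, and precision is limited by how many arrays there are. The fit was tested on simulated data. Named were Kcnd2, the 12 largest called differences in each direction, genes called both ways, and 34 genes of a fixed list. Kcnn3 was named after its values were seen. The members and lists were chosen with earlier results of these data known. Alternatives were other scaling, probe set choice, filters, replicate definitions, a replicate block, leaving out each sample, and the methods' t-test.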

Additional observations from a re-analysis of the deposited data

Results flagged for a closer look

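The age difference itself differed between the tissues in 5 genes by limma's interaction test (hippocampal minus cardiac age difference, adjusted p over all genes).
Kcne1 gave 3.90 (adjusted p = 0.0152), with age differences of 0.59 in hippocampus and -3.31 in heart. For Kcne3 the interaction was -2.83 (adjusted p = 0.0153), since it differed with age by 0.87 in hippocampus and 3.70 in heart. Kcnmb4os2 had an interaction of -2.37 (adjusted p = 0.00976) and was lower by 1.00 in adult hippocampus and higher by 1.38 in adult heart than in pups, both called. The interaction of Kcnk1 was -1.83 (adjusted p = 0.0400), from -0.73 in hippocampus, not called, and 1.10 in heart, called. That of Kcns1 was -1.72 (adjusted p = 0.0467), from -0.82 in hippocampus, not called, and 0.90 in heart, called. Leaving out a sample ended the call in 2 of 10 fits for Kcne1, 3 for Kcne3, 9 each for Kcnk1 and Kcns1, and none for Kcnmb4os2. Age cannot be told apart from the source of the RNA in either tissue.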

How the results depend on the processing

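The main counts were 15 and 24 genes for age in hippocampus and heart, 15 and 19 between pup and adult tissues, and 5 for the interaction. Treating the adult arrays as separate replicates called 23 for age in hippocampus, 32 between adult tissues and 9 for the interaction. Among all 18194 genes it called 2278 higher and 2025 lower, 2923 and 3214, and 795 and 959 in the same order. A replicate block called 4, 6 and 0 for age in hippocampus, age in heart and the interaction, with 24, 31 and 13 at an unadjusted p under 0.05. Among all 18194 genes these 3 counts were 210 higher and 442 lower, 643 and 776, and 8 and 37. Between pup and adult tissues the block called 13 and 14 of the 84 genes. There it called 1296 higher and 1044 lower, and 1383 and 1497, of all genes. Samples shared only a replicate number, with correlations of 0.20, -0.092 and 0.0017 in pups and -0.060 in adults. The interaction called 3 genes without the lowest 25% of genes and 3 with technical array 1 alone. Over all genes these settings called 196 positive and 359 negative of 13645, and 190 and 340 of 18194. The methods' t-test called 2 for age in hippocampus, 0 in heart, 8 between pup and 0 between adult tissues after adjustment (unadjusted 30, 21, 19 and 24), and 0 in all 4 at its 0.1% threshold. Of all 18194 genes it called 462 higher and 572 lower with age in hippocampus, 37 and 30 in heart, and 593 and 360 between pup tissues. Between adult tissues it called no gene of the array, and at 0.1% none in any comparison. It gave no interaction. Leaving out each sample in turn gave 3 to 22 for age in hippocampus, 6 to 27 in heart, 11 to 21 and 7 to 23 between pup and adult tissues, and 1 to 6 for the interaction. Averaging probe sets turned the sign of Kcnip1 with age in hippocampus (0.012), of Kcnd2 with age in heart (0.57), and of Kcna6 (0.13) and Kcnip4 (0.12) between adult tissues, and Kcnip4 was 0.87 on plain probe sets. The Kcnd2 age difference in heart ran from -0.43 to 0.20 when 1 sample was left out. The cause of these changes was not tested. Scaling the arrays called 1679 genes higher and 2057 lower with age in heart, against 2044 and 1706. Among the named calls, 6 of 15 between pup tissues passed in every alternative run for them, 5 of them in 21 and Kcnt2 in 20. No call of another comparison did. Between adult tissues none could, because the methods' t-test called no gene of the array there.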
